A study of Homo sapiens with 12 samples.

Results

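The genes described here are 5 drug efflux pumps and 5 carbonyl-reducing enzymes linked to the handling of anthracyclines. The pumps are ABCB1, ABCC1, ABCC2, ABCC3 and ABCG2, and the reductases are CBR1, CBR3, AKR1B1, AKR1B10 and AKR1C3. They were chosen by name from what is known of anthracycline handling, with earlier results of these data known. Their rows were found through GENCODE v29. Of the 10 genes, 9 are among the 16676 genes in the table, and CBR1 was not analysed here. All 9 had a TPM of 1 or more in 2 or more of the 12 libraries, the minimum for the test, which 15256 genes passed. AKR1B10 and ABCG2 passed that minimum through the doxorubicin libraries and ABCB1 and CBR3 through the control libraries, and the other medium would not have passed any of these 4 by itself. A difference between the media was thus built into them, and the counts of genes below are descriptions.

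Anthracyclines such as doxorubicin enter cells largely by diffusion and are expelled by ATP-binding cassette (ABC) pumps of the cell membrane, which spend ATP to move drugs, drug conjugates or bile constituents outward. Carbonyl reductases and aldo-keto reductases add hydrogen to the side-chain carbonyl of doxorubicin and give doxorubicinol, a less cytotoxic alcohol. In gut epithelium ABCB1, ABCC2 and ABCG2 are known at the apical membrane and ABCC1 and ABCC3 at the basolateral membrane.

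RNA came from HCT116, an established line of human colon carcinoma, grown in serum-supplemented medium. The cells either were wild type (WT), lacked SPARCLE by knockout (KO) or over-expressed it (OE), SPARCLE being a long non-coding RNA. Each of the 3 lines was exposed to 1 µM doxorubicin for 48 h or kept in regular medium, called control, in 2 biological replicates, a and b, which gave 6 groups. The labels name no clones, and how KO and OE cells were made is not given in the sources used here, so the p-values measure no more than the spread between replicates.

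The 6 doxorubicin libraries held 24870225 to 30663463 reads on the genes in the table and the 6 control libraries 12589707 to 18557510, recovered from the deposited values. Depth thus moved with the medium, and its part in the results was not tested. SPARCLE (gene MIR34BHG) had 430 and 487 reads in OE cells with doxorubicin, 384 and 622 reads in OE control, and 0 to 4 reads in each KO and WT library, so a loss in KO cells was not detectable at this depth. The p53 target CDKN1A stood at 505 to 1038 TPM in the 6 doxorubicin libraries and at 73.5 to 109.6 TPM in the 6 control libraries. Of the epithelial markers, EPCAM lay at 90.2 to 163 TPM and CDH1 at 28.0 to 46.3 TPM in all 12 libraries. KRT8 lay at 169 to 556 TPM, KRT18 at 155 to 765 TPM and KRT19 at 421 to 1852 TPM, VIL1 lay at 0.0333 to 0.987 TPM, and CDX1 was not among the listed genes. None of 4 leukocyte markers was listed, COL1A1 of 3 fibroblast markers lay at 1.04 to 6.19 TPM, and VWF of 2 endothelial markers at 0.128 to 0.373 TPM. A set of 306 small RNA genes held 49.9 to 59.7% of the TPM of a library, and the shift of a library's median gene ranged from -0.26 to 0.22 log2 units. In bulk RNA, fewer cells of a type and less RNA per cell cannot be told apart.

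On the build hg38, with the strand in brackets, GENCODE v29 places the pumps ABCB1 at chr7:87503633-87713323 (minus), ABCC1 at chr16:15949577-16143074 (plus), ABCC2 at chr10:99782640-99852594 (plus), ABCC3 at chr17:50634777-50692252 (plus) and ABCG2 at chr4:88090264-88231322 (minus). It places the reductases CBR1 at chr21:36069941-36073166 (plus), CBR3 at chr21:36134912-36146566 (plus), AKR1B1 at chr7:134442350-134459284 (minus), AKR1B10 at chr7:134527592-134541408 (plus) and AKR1C3 at chr10:5035354-5107686 (plus). The deposited values are 1 per gene, scaled by its exon length, so introns, promoters and single transcripts are not told apart.

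Promoter windows are shown for ABCC2 and ABCB1, the pumps with the largest rise and the largest fall under doxorubicin among those in the RefSeq promoter table (GRCh38.p14). Each window runs from 250 bases before to 50 bases after an annotated start, 5′ to 3′ on the gene's strand. Capitals mark matches to the antioxidant response element core (TGACNNNGC), the AP-1 site (TGANTCA), the CCAAT box (CCAAT) or the p53 decamer, on either strand. The ABCC2 window is chr10:99782390-99782689 on the plus strand. The ABCB1 window is chr7:87600835-87601134 on the minus strand, at the downstream of its 2 annotated starts in the table. The window at the upstream start, chr7:87713246-87713545, is not shown. It holds none of these matches, 1 CpG dinucleotide and 37.7% G and C.
ABCC2: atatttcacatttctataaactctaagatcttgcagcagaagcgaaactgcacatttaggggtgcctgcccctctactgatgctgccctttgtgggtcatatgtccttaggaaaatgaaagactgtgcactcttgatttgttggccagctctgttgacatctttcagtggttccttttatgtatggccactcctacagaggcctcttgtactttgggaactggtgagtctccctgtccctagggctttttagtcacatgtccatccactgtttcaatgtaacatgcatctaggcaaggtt
ABCB1: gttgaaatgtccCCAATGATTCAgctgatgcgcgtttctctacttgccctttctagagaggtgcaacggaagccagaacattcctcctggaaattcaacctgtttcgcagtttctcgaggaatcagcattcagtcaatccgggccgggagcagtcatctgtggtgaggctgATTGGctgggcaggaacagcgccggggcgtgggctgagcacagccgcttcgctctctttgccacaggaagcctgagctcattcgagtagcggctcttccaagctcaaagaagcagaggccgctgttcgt
The ABCC2 window has no capitals, and it holds no GC box (GGGCGG) either. It has 1 CpG dinucleotide and 45.0% G and C. The ABCB1 window holds 16 CpG dinucleotides and 55.3% G and C. An AP-1 match begins 234 bases before its start and shares a base with a CCAAT match that begins 238 bases before the start. Another CCAAT match lies on the opposite strand 79 bases before the start. Of the 35116 promoter windows in the table, 7.71% hold an AP-1 match, 34.6% a CCAAT box, 13.3% an antioxidant core, 6.63% a p53 decamer and 45.0% a GC box. An antioxidant core was found in 1 of 5 ABCG2 windows and in the CBR1 window, and none of the windows of ABCB1, ABCC2, ABCG2, CBR1, AKR1B1 and AKR1C3 held a p53 decamer. No windows of ABCC1, ABCC3, CBR3 and AKR1B10 were searched. A match is a description of letters, and no match says only that these letters are not in the window.

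Whether 48 h of doxorubicin was accompanied by other levels of these genes was asked across the 3 kinds of cells. Of the 9 genes, 7 passed the test (limma, adjusted p under 0.05 over all genes tested), against 58.0% of all genes. Among these 7, AKR1B10, ABCG2, ABCB1 and CBR3 passed the minimum for the test through a single medium. The count is thus a description and no result about the set. ABCC2, AKR1B10, ABCC3, ABCC1 and ABCG2 were higher with doxorubicin, where 32.2% of all genes were, and ABCB1 and CBR3 were lower, where 25.9% were. AKR1B1 and AKR1C3 did not pass. The median difference was 0.40 log2 units for the 9 genes and 0.09 for all genes. Differences are on the log2(TPM + 1) scale, which understates the change of genes near or below 1 TPM, and are given ± SE.

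**Figure D1:**
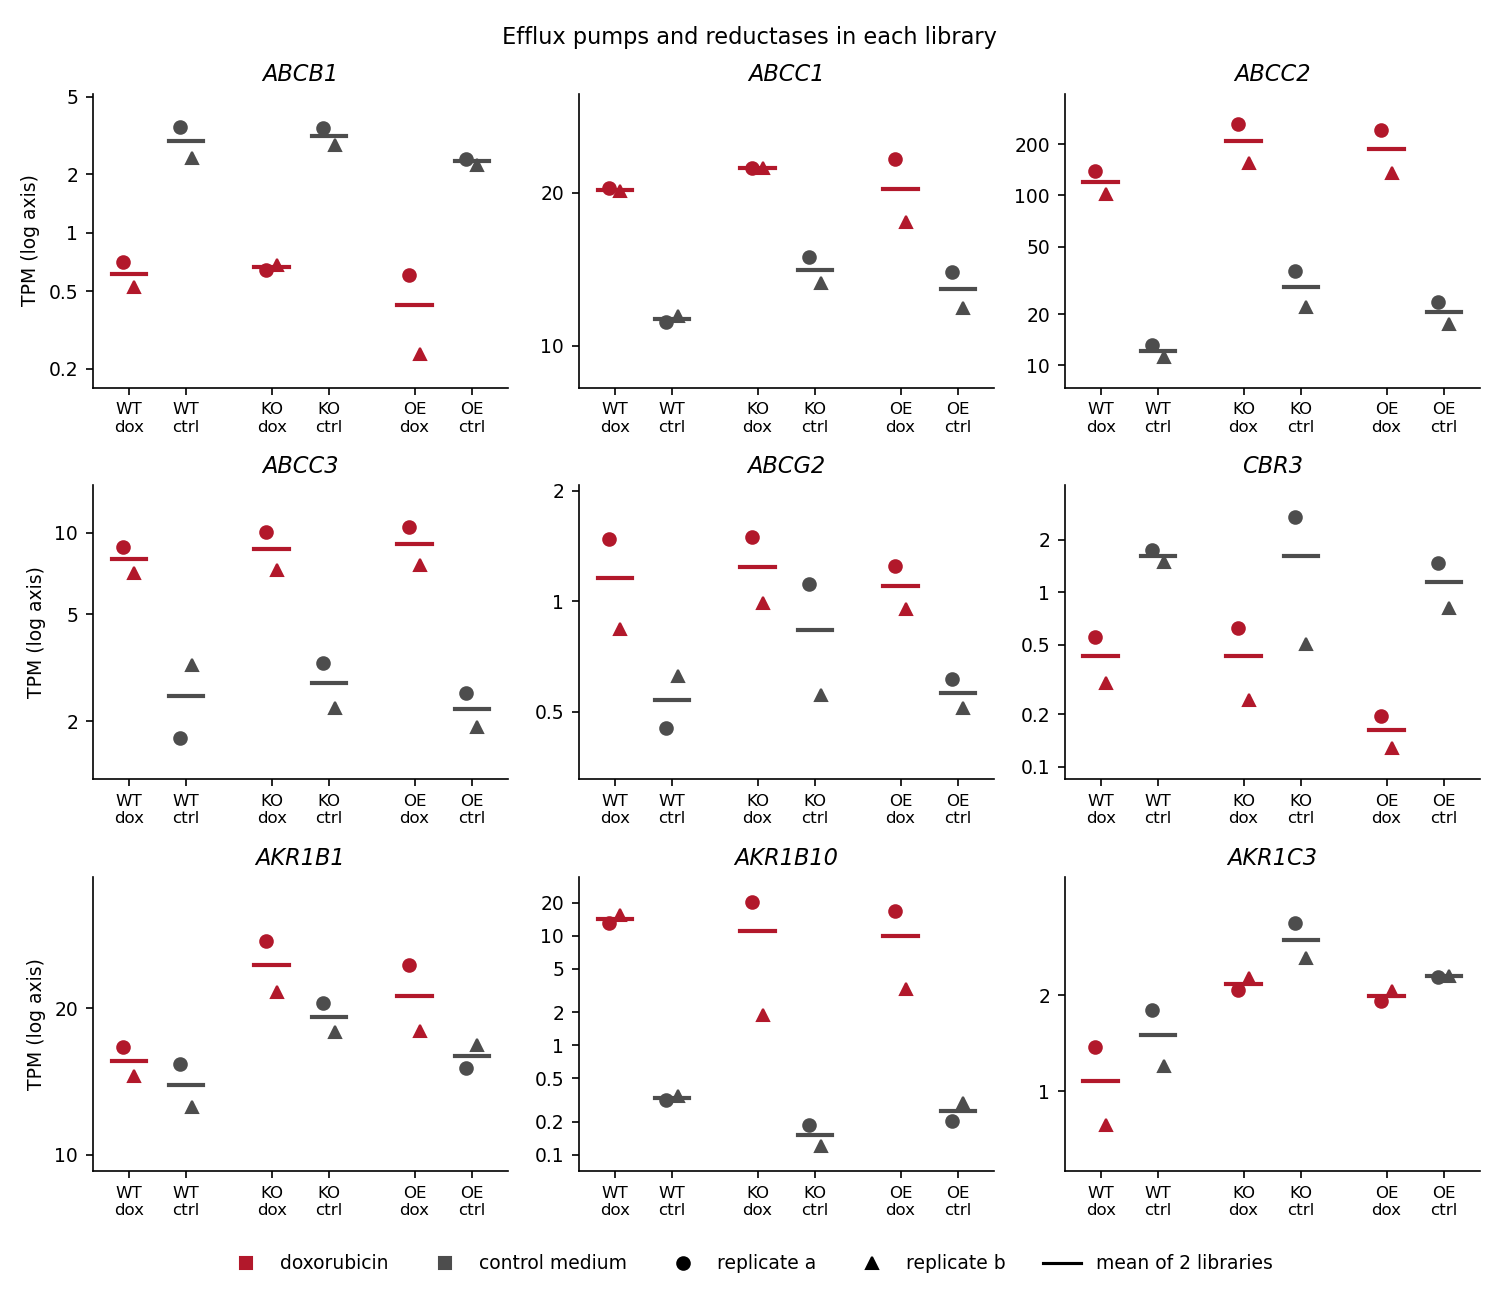
Each panel shows 1 gene, with TPM per library on a log axis; red symbols are doxorubicin libraries, grey symbols control libraries, circles replicate a, triangles replicate b and bars the mean of the 2 libraries. ABCC2, ABCC3, ABCC1 and AKR1B10 lie higher in all 6 doxorubicin libraries than in all 6 control libraries, ABCB1 lies lower in all 6, and the other 4 genes overlap.

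ABCC2 encodes MRP2, an apical pump of glutathione and glucuronide conjugates, and had the largest change of the pumps. With doxorubicin it stood at 139 and 102 TPM in WT cells, 261 and 155 TPM in KO cells and 241 and 136 TPM in OE cells. In control medium it stood at 13.2 and 11.3 TPM in WT cells, 36.1 and 22.1 TPM in KO cells and 23.6 and 17.4 TPM in OE cells. The lowest doxorubicin library was thus above the highest control library. Averaged over the lines the difference was 3.02 ± 0.19 log2 units (limma adjusted p = 2.86e-07). It was 3.19 ± 0.33 in WT cells (limma adjusted p = 9.51e-05), 2.79 ± 0.33 in KO cells (0.000276) and 3.10 ± 0.33 in OE cells (0.000156), and the ratio of mean TPM was 9.85, 7.16 and 9.19. The call held in each line under all alternatives run.

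With doxorubicin ABCC2 was the most abundant of the 9 genes per length in each line. It made up 78.1 to 81.5% of the summed TPM of the 5 pumps in WT cells, 83.2 to 88.3% in KO cells and 83.8 to 87.1% in OE cells. In control medium its share was 38.8 to 43.9% in WT cells, 53.9 to 61.3% in KO cells and 51.3 to 54.7% in OE cells. The summed TPM of the 5 pumps ran from 130.5 to 296 across the doxorubicin libraries and from 29.02 to 58.9 across the control libraries. The summed TPM of the 4 reductases, which leaves out CBR1, ran from 23.4 to 50.6 with doxorubicin and from 15.6 to 26.7 in control medium. The pump sums did not overlap between the media, while the reductase sums did. Within lines the reductase sums overlapped in KO cells, at 26.0 TPM or more with doxorubicin and up to 26.7 TPM in control medium. They did not overlap within WT or OE cells.

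ABCC3 encodes MRP3, a basolateral pump of glucuronides and bile acids. Its 6 doxorubicin libraries ran from 7.10 to 10.5 TPM with a median of 8.21 TPM. The 6 control libraries ran from 1.74 to 3.29 TPM with a median of 2.40 TPM, without overlap. The difference was 1.46 ± 0.18 log2 units averaged over the lines (limma adjusted p = 2.48e-05), a ratio of 3.43 in mean TPM. By line it was 1.39 ± 0.31 in WT cells (limma adjusted p = 0.00524), 1.36 ± 0.31 in KO cells (0.0082) and 1.63 ± 0.31 in OE cells (0.00356). The WT call was lost without WT control replicate a (adjusted p = 0.073) or WT doxorubicin replicate a (0.0501), and the alternatives covered a range of 5.52e-05 to 0.073 in the alternatives. The KO call was lost without KO control replicate b (0.0786) or KO doxorubicin replicate a (0.0685), and the alternatives covered a range of 0.000474 to 0.0786.

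ABCC1 encodes MRP1, the first multidrug resistance-associated protein described and a pump of anthracyclines with glutathione. It stood at 20.5 and 20.1 TPM in WT, 22.4 and 22.4 TPM in KO, and 23.3 and 17.5 TPM in OE cells with doxorubicin. Control medium gave 11.2 and 11.5 TPM in WT, 15.0 and 13.3 TPM in KO, and 14.0 and 11.9 TPM in OE cells. The media did not overlap in any line. The rise averaged 0.68 ± 0.12 log2 units (limma adjusted p = 0.00055), a ratio of 1.64 in mean TPM. Within lines it was 0.79 ± 0.22 in WT cells (limma adjusted p = 0.0153), 0.63 ± 0.22 in KO cells (0.0495) and 0.61 ± 0.22 in OE cells, where it did not pass (0.0577).

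The ABCC1 calls within lines lay close to the threshold. Without each library in turn the difference was 0.77 to 0.81 log2 units in WT, 0.55 to 0.71 in KO and 0.41 to 0.81 in OE cells. Over all alternatives run the WT difference was 0.59 to 0.84 log2 units. The WT call was lost without WT control replicate a (adjusted p = 0.0929) or b (0.0545), or WT doxorubicin replicate a (0.0774) or b (0.0705), in a range of 0.00743 to 0.0929. The KO call was lost on leaving out any 1 of the 4 WT libraries (0.0674 to 0.0697), the 4 KO libraries (0.0829 to 0.236) or either OE control library (0.0735 and 0.0736), and with a pseudocount of 0.1 (0.0532). It was also lost when only the KO groups were fitted (0.126). In OE cells ABCC1 passed, among other alternatives, without OE doxorubicin replicate b (0.0309), with median-ratio scaling (0.036) and with voom on the recovered reads (0.0229), with 0.0229 to 0.301 over the alternatives. The call averaged over the lines was kept under every alternative run, with adjusted p values of 0.000161 to 0.00314.

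ABCG2 encodes BCRP, a pump of drugs and porphyrins. The gene was low throughout and passed the minimum for the test through its doxorubicin libraries. With doxorubicin it stood at 1.48 and 0.838 TPM in WT, 1.50 and 0.987 TPM in KO, and 1.25 and 0.95 TPM in OE cells. In control medium it stood at 0.451 and 0.623 TPM in WT, 1.11 and 0.555 TPM in KO, and 0.613 and 0.510 TPM in OE cells. KO control replicate a lay inside the doxorubicin range, and the other 5 control libraries lay below it. The averaged rise was 0.40 ± 0.14 log2 units (limma adjusted p = 0.0261), and no line passed alone (0.145 in WT, 0.39 in KO and 0.215 in OE). The averaged call was lost without WT control replicate a (0.0657), WT doxorubicin replicate a (0.0857), KO control replicate b (0.0763), KO doxorubicin replicate a (0.0773), OE control replicate b (0.0659) or OE doxorubicin replicate a (0.0583), and the alternatives ran from 0.0052 to 0.0857.

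ABCB1 encodes P-glycoprotein, the classic multidrug pump, and was the only pump of the 5 that fell. With doxorubicin it stood at 0.706 and 0.526 TPM in WT, 0.641 and 0.686 TPM in KO, and 0.609 and 0.237 TPM in OE cells. In control medium it stood at 3.5 and 2.43 TPM in WT, 3.44 and 2.83 TPM in KO, and 2.41 and 2.24 TPM in OE cells. Every doxorubicin library was below every control library. ABCB1 passed the minimum for the test through its control libraries, so a difference between the media was built into it. ABCB1 fell by 1.28 log2 units on average (SE 0.14, limma adjusted p = 1.1e-05), by 1.28 in WT cells (adjusted p = 0.0022), 1.31 in KO cells (0.00279) and 1.24 in OE cells (0.00413). The call held in each line under all alternatives run. The ratio of doxorubicin to control mean TPM was 0.208 in WT, 0.211 in KO and 0.182 in OE cells, from 30 to 89 reads a library with doxorubicin and 122 to 262 in control medium.

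Per length, ABCB1 ranked 8 of the 9 genes with doxorubicin and 4 of the 9 in control medium, in each line. In control medium its libraries overlapped those of the next gene in each line. The means there were 2.97 TPM beside 2.49 TPM for ABCC3 in WT cells. Beside AKR1C3 they were 3.14 and 2.99 TPM in KO and 2.33 and 2.29 TPM in OE cells. RUNDC3B, a gene on the opposite strand that overlaps ABCB1, stood at 0.929 to 2.06 TPM with doxorubicin and 2.77 to 5.97 TPM in control medium. The kit keeps strand, but the strand setting of the counting is not given in the sources used here. Reads of the 2 genes thus cannot be told apart where their exons overlap. Only the spans of the genes were compared, and shared exons were not sought. Of the 50-base windows of ABCB1 transcripts, 2.02% also occur in ABCB4, which was not among the listed genes.

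**Figure D2:**
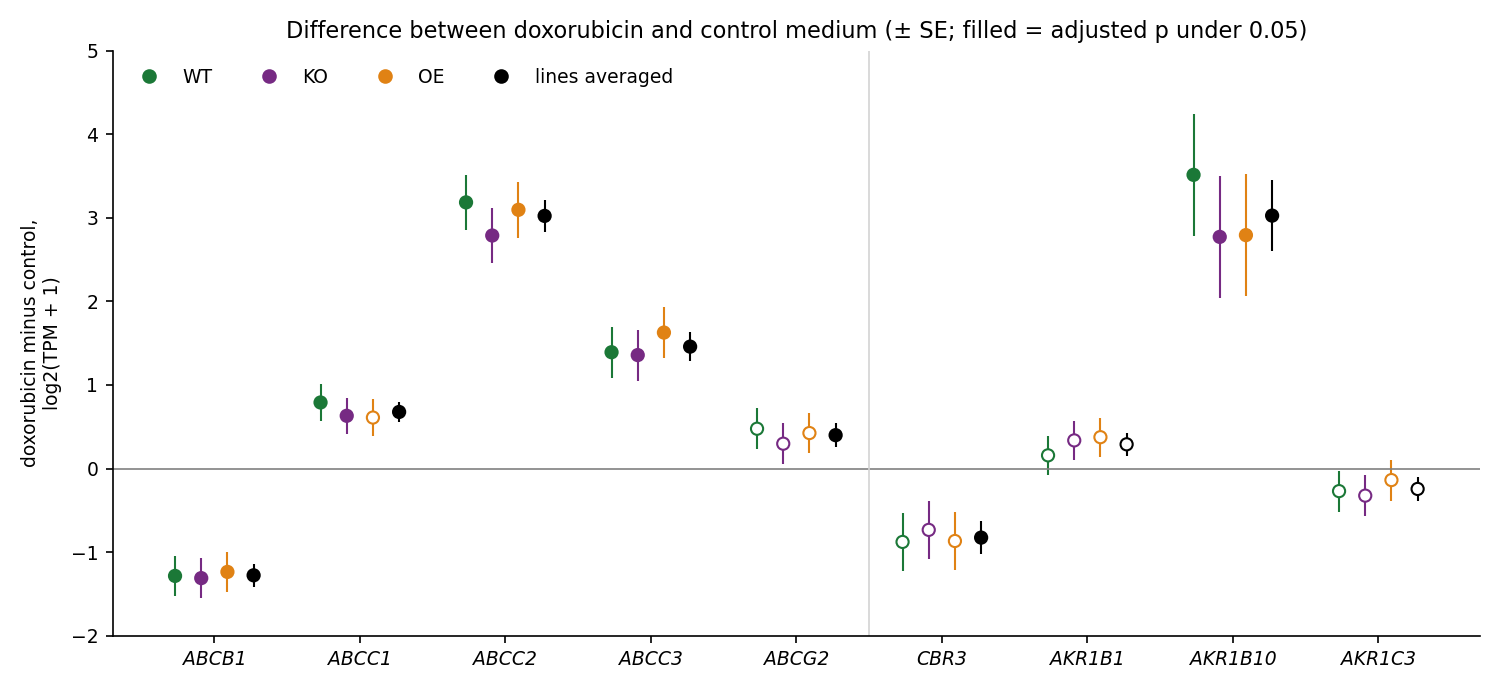
Points are doxorubicin minus control differences in log2(TPM + 1) for each gene in WT, KO and OE cells and averaged over the lines, bars are ± SE, and filled points passed at an adjusted p under 0.05. ABCC2 and AKR1B10 stand near 3 log2 units, ABCB1 near -1.28, and AKR1B1 and AKR1C3 have open points throughout.

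Of the reductases, AKR1B10 had the largest change and the widest spread. It encodes an aldo-keto reductase of retinal and aliphatic aldehydes known for high levels in some carcinomas. With doxorubicin it stood at 13.0 and 15.5 TPM in WT, 20.4 and 1.90 TPM in KO, and 16.7 and 3.24 TPM in OE cells. Control medium gave 0.320 and 0.341 TPM in WT, 0.186 and 0.119 TPM in KO, and 0.205 and 0.298 TPM in OE cells. All doxorubicin libraries were above all control libraries, but replicate a exceeded replicate b 10.7 times in KO and 5.16 times in OE cells with doxorubicin. AKR1B10 passed the minimum for the test through its doxorubicin libraries, so a difference between the media was built into it. The rise was 3.03 ± 0.42 log2 units on average (limma adjusted p = 7.28e-05), 3.51 ± 0.73 in WT cells (0.00403), 2.77 ± 0.73 in KO cells (0.0174) and 2.79 ± 0.73 in OE cells (0.0179).

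AKR1B10 rested on 2 to 7 reads in each control library, against 74 to 652 reads with doxorubicin. The ratio of doxorubicin to control reads, corrected for depth, was 44.8 in WT cells (95% exact counting interval 25.5 to 87.1), 72.3 in KO cells (30.9 to 223) and 37.5 in OE cells (20.2 to 78.5). These intervals cover counting error only and not the spread between replicates. The KO call was lost without KO control replicate b (adjusted p = 0.0898) or KO doxorubicin replicate a (0.127, difference 1.33), and the alternatives ran from 0.000211 to 0.127. In OE cells the call was lost on leaving out OE control replicate a (0.0701) or b (0.0824) or OE doxorubicin replicate a (0.155, difference 1.76), and the alternatives ran from 2.22e-12 to 0.155. Without KO doxorubicin replicate a the difference in KO cells was more than 1.5 times smaller, and likewise in OE cells without OE doxorubicin replicate a.

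In the same KO and OE doxorubicin libraries CDKN1A was 2.03 and 1.91 times higher in replicate a than in replicate b, and ABCC2 1.69 and 1.77 times. The median gene lay 0.22 and -0.06 log2 units from its mean in KO doxorubicin replicates a and b, and 0.18 and -0.26 in OE doxorubicin replicates a and b. The part of these library differences in the AKR1B10 values was not tested. Of the 50-base windows of AKR1B10 transcripts, 14.6% also occur in another gene, 9.69% in AKR1B15, which was not among the listed genes, so its reads carry that uncertainty.

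CBR3, a carbonyl reductase of doxorubicin, fell with doxorubicin and was the least abundant of the 9 genes per length there. With doxorubicin it stood at 0.554 and 0.302 TPM in WT, 0.623 and 0.242 TPM in KO, and 0.196 and 0.128 TPM in OE cells. Control medium gave 1.74 and 1.50 TPM in WT, 2.71 and 0.505 TPM in KO, and 1.47 and 0.816 TPM in OE cells. The media overlapped through KO control replicate b and the replicates a of WT and KO doxorubicin. CBR3 passed the minimum for the test through its control libraries, so a difference between the media was built into it. The averaged fall was 0.83 log2 units (SE 0.20, limma adjusted p = 0.00322), which held under all alternatives run for it (0.000135 to 0.0128). No line passed alone, with adjusted p values of 0.0658 in WT (0.00309 to 0.246 over the alternatives), 0.134 in KO (0.0158 to 0.856) and 0.0831 in OE cells (0.0151 to 0.322).

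Reads for CBR3 numbered 3 to 13 a library with doxorubicin and 6 to 31 in control medium. Corrected for depth, the read ratio of doxorubicin to control was 0.249 in WT cells (95% exact counting interval 0.131 to 0.454), 0.256 in KO cells (0.139 to 0.456) and 0.138 in OE cells (0.0509 to 0.323). The KO value rested on control libraries that differed 5.36 times. Without KO control replicate a the KO difference was -0.08 log2 units (limma adjusted p = 0.856), and without KO control replicate b it was -1.38 (0.0158), in place of -0.73. CBR3-AS1, transcribed from the opposite strand over CBR3, had a median of 0.716 TPM with doxorubicin and 0.322 TPM in control medium, with ranges of 0.330 to 0.990 TPM and 0.167 to 0.422 TPM that overlapped. It did not reach the minimum for the test. Without the strand setting of the counting, reads of CBR3 and CBR3-AS1 cannot be told apart where they overlap.

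AKR1B1 encodes aldose reductase, which reduces glucose and lipid aldehydes, and was among the 3 most abundant of the 9 genes in every group. It stood at 16.7 and 14.5 TPM in WT, 27.5 and 21.6 TPM in KO, and 24.5 and 18.0 TPM in OE cells with doxorubicin. In control medium it stood at 15.3 and 12.5 TPM in WT, 20.5 and 17.8 TPM in KO, and 15.1 and 16.8 TPM in OE cells. The media overlapped in WT cells and not within KO or OE cells. The averaged difference was 0.29 ± 0.14 log2 units with a 95% interval of -0.00 to 0.58 (limma adjusted p = 0.0817). In WT cells it was 0.16 ± 0.23 as fitted and -0.02 relative to the median gene, which itself lay 0.17 higher with doxorubicin, and it turned to -0.05 with median-ratio scaling and -0.06 on recovered reads. AKR1B1 passed on average under 2 alternatives, of which leaving out OE doxorubicin replicate b gave an adjusted p of 0.0337, in a range of 0.0337 to 0.217.

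The neighbouring genes AKR1B1 and AKR1B10, 68.3 kilobases apart on chromosome 7, thus differed in their values, with 0.29 log2 units for AKR1B1 and 3.03 for AKR1B10. CBR1 and CBR3 lie 61.7 kilobases apart on chromosome 21.

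AKR1C3 encodes a ketosteroid reductase that also reduces doxorubicin. It stood at 1.38 and 0.785 TPM in WT, 2.08 and 2.26 TPM in KO, and 1.92 and 2.07 TPM in OE cells with doxorubicin. In control medium it stood at 1.80 and 1.20 TPM in WT, 3.36 and 2.62 TPM in KO, and 2.29 and 2.30 TPM in OE cells. Doxorubicin libraries were below control libraries in KO and OE cells and overlapped in WT cells. The averaged difference was -0.24 ± 0.14 log2 units with a 95% interval of -0.55 to 0.06 (limma adjusted p = 0.157), and of the alternatives it passed only on recovered reads (-0.49, adjusted p = 0.0442, with the others up to 0.354). AKR1C2 shares 3.61% of the 50-base windows of AKR1C3 transcripts and was not among the listed genes.

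By line, 5 of the 9 genes passed in WT cells, 4 higher and 1 lower, where 32.2% of all genes passed, 19.6% higher and 12.6% lower. With median-ratio scaling, 3447 genes were higher and 3506 lower in WT cells, in place of 2994 higher and 1920 lower. In KO cells 5 of the 9 passed, 4 higher and 1 lower, against 24.2% of all genes, 9.9% higher and 14.3% lower. In OE cells 4 of the 9 passed, 3 higher and 1 lower, against 23.0% of all genes, 12.4% higher and 10.6% lower. ABCB1, ABCC2, ABCC3 and AKR1B10 passed in all 3 lines and ABCC1 in WT and KO cells. ABCB1 and AKR1B10 passed the minimum for the test through a single medium, so the counts here are descriptions. The doxorubicin and control libraries of WT cells did not overlap for 7 of the 9 genes, where 72.5% of all genes did not. In KO cells they did not overlap for 7, against 62.1%, and in OE cells for 9, against 61.2%. Over all 6 doxorubicin and 6 control libraries 5 genes did not overlap, against 32.0%. The median gene lay 0.17 log2 units higher with doxorubicin in WT cells, 0.11 higher in OE cells and -0.01 in KO cells. Relative to it ABCC2 differed by 3.01, 2.80 and 2.99 and ABCC1 by 0.62, 0.64 and 0.50 in WT, KO and OE cells.

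Whether the response differed with SPARCLE was asked through the interaction of line and doxorubicin. None of the 9 genes passed for KO or for OE cells (limma; 0 on recovered reads), where 0.00655% of all genes did in each. At an unadjusted p under 0.05 there were 0 of the 9 in each, where 1.27% of all genes had that for KO and 0.983% for OE cells. The difference of the ABCC2 response was -0.40 ± 0.47 log2 units between KO and WT cells, with a 95% interval of -1.42 to 0.62 and values of -0.77 to -0.02 without each library, and -0.09 ± 0.47 between OE and WT cells, with an interval of -1.11 to 0.93. For AKR1B10 it was -0.74 ± 1.04 (-2.98 to 1.50) in KO and -0.72 ± 1.04 (-2.96 to 1.52) in OE cells. Both directions for AKR1B10 turned when replicate b of the line's doxorubicin libraries was left out, to 0.70 in KO and 0.31 in OE cells. For ABCB1 it was -0.03 ± 0.34 (-0.75 to 0.70) in KO and 0.05 ± 0.34 (-0.68 to 0.78) in OE cells. The intervals of these 3 genes leave room for differences of more than 0.6 log2 units either way, so alike responses are not shown.

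The lines were then compared with each other. Both KO and OE cells are set against the same WT libraries, so their values are not independent of each other. Averaged over the media, 0 of the 9 genes passed in KO against WT (limma; 1 on recovered reads), where 0.846% of all genes did, and 3 of the 9 had an unadjusted p under 0.05, where 8.33% of all genes had. In OE against WT 0 passed (1 on recovered reads), where 0.78% of all genes did, and 2 had an unadjusted p under 0.05, where 8.96% had. In OE against KO 0 passed (0 on recovered reads), where 0.00655% did, and 0 had an unadjusted p under 0.05, where 2.43% had. Within control medium 0 passed for KO, against 0.0918% of all genes, and 0 for OE, against 0.118%. There 2 of the 9 had an unadjusted p under 0.05 for KO, against 7.14% of all genes, and 0 for OE, against 5.03%. With doxorubicin 0 passed for KO, against 0.295%, and 0 for OE, against 0.315%. There 3 had an unadjusted p under 0.05 for KO, against 3.43%, and 1 for OE, against 4.83%. None of these 4 comparisons within a medium had a call on recovered reads either.

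**Figure D3:**
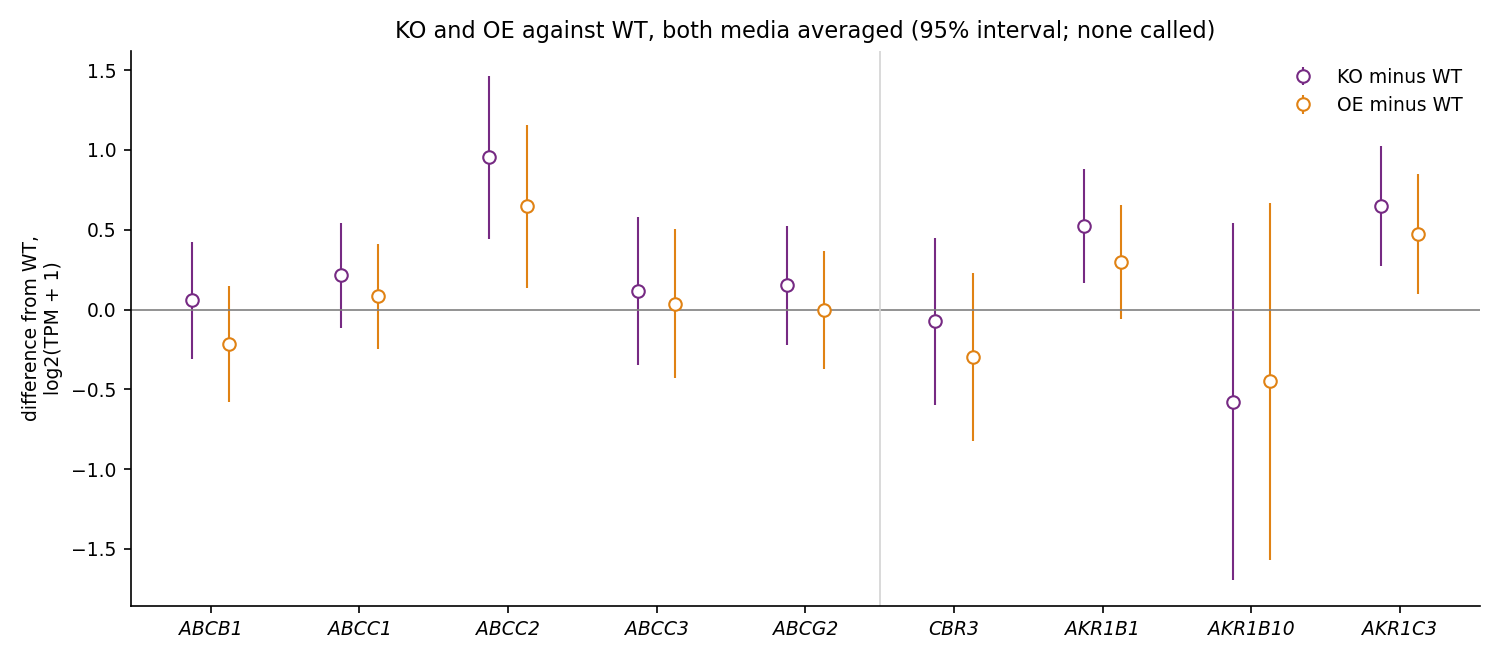
Points are KO minus WT and OE minus WT differences in log2(TPM + 1) averaged over both media, bars are 95% intervals, and no gene passed. ABCC2, AKR1B1 and AKR1C3 have KO intervals above 0, and the AKR1B10 intervals are the widest.

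ABCC2 had the largest KO difference, 0.95 ± 0.24 log2 units with a 95% interval of 0.44 to 1.46 (limma adjusted p = 0.109). Its KO libraries were above its WT libraries in each medium, as the values above show. The KO difference was 1.15 ± 0.33 in control medium (adjusted p = 0.45) and 0.76 ± 0.33 with doxorubicin (1.00), and relative to the median gene, which lay 0.20 higher in KO control than in WT control, it was 0.96 in control medium. Leaving out 1 library moved the KO difference with doxorubicin to 0.38 (without KO doxorubicin replicate a) and up to 1.13 (without replicate b), and that in control medium to 0.81 to 1.49. The averaged difference passed with median-ratio scaling (0.83, adjusted p = 0.0338), on recovered reads (0.86, 0.0319) and without KO doxorubicin replicate b (1.14, 0.0302), in a range of 0.00464 to 0.532. Against WT, OE cells differed by 0.65 ± 0.24 with an interval of 0.14 to 1.16 (adjusted p = 0.381), and passed on recovered reads (0.78, 0.0497), in a range of 0.0476 to 0.798. Whether OE and KO cells differed was not settled, at -0.31 ± 0.24 with an interval of -0.82 to 0.20 (adjusted p = 0.673).

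AKR1C3 and AKR1B1 were the others with an unadjusted p under 0.05. AKR1C3 differed by 0.65 ± 0.17 in KO against WT, with a 95% interval of 0.27 to 1.03 (limma adjusted p = 0.161), and by 0.47 ± 0.17 in OE against WT, with an interval of 0.10 to 0.85 (0.388). All KO and OE libraries had more AKR1C3 than the WT libraries of the same medium. AKR1B1 differed by 0.53 ± 0.17 in KO against WT, with an interval of 0.17 to 0.88 (0.298), and by 0.30 ± 0.17 in OE against WT, with an interval of -0.06 to 0.66 (0.648). For ABCC1, ABCC2, AKR1B1 and AKR1C3, 4 of the 9 genes, KO libraries were above WT libraries in both media without overlap, which 6.61% of all genes were, and 8.93% in either direction. Relative to the median gene, which lay 0.10 higher in KO and -0.08 in OE against WT, ABCC2 differed by 0.85 in KO and 0.73 in OE, AKR1C3 by 0.55 and 0.55, and AKR1B1 by 0.42 and 0.38. OE and WT libraries did not overlap in either medium for AKR1C3, which was higher in OE, and CBR3, which was lower, 2 of the 9 genes, against 11.0% of all genes.

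For ABCB1, the pump that fell with doxorubicin, the line differences were 0.06 ± 0.17 in KO (-0.31 to 0.42; -0.05 relative to the median gene) and -0.22 ± 0.17 in OE cells (-0.58 to 0.15). For ABCC1 they were 0.21 ± 0.15 in KO (-0.12 to 0.55) and 0.08 ± 0.15 in OE cells (-0.25 to 0.41). For ABCC3 they were 0.12 ± 0.22 in KO (-0.35 to 0.58) and 0.04 ± 0.22 in OE cells (-0.43 to 0.50). ABCG2, CBR3 and AKR1B10 had intervals that include 0 in both lines, and the AKR1B10 intervals spanned -1.70 to 0.67.

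The order of levels per length differed between the media. In control medium the gene with the highest mean was AKR1B1 in WT cells and ABCC2 in KO and OE cells. With doxorubicin ABCC2 led in all 3 lines, at 120 ± 26.0 TPM in WT, 208 ± 75.2 TPM in KO and 188 ± 74.4 TPM in OE cells. In control medium the means of ABCC2 and AKR1B1 were 12.2 ± 1.34 and 13.9 ± 1.99 TPM in WT cells (SD, n = 2). They were 29.1 ± 9.85 and 19.1 ± 1.85 TPM in KO and 20.5 ± 4.38 and 16.0 ± 1.23 TPM in OE cells. The means differed by less than the sum of the SDs in each line, which does not take account of the shared libraries. Within libraries AKR1B1 was above ABCC2 in each WT control library and below it in each KO and OE control library. With doxorubicin ABCC1 (20.3 ± 0.232 TPM) and AKR1B1 (15.6 ± 1.52 TPM) followed in WT cells, and in KO cells AKR1B1 (24.6 ± 4.15 TPM) and ABCC1 (22.4 ± 0.018 TPM) were within their spread. ABCC3 ranked 5 of the 9 with doxorubicin, at 7.98 ± 1.25 TPM in WT, 8.67 ± 1.98 TPM in KO and 9.05 ± 2.10 TPM in OE cells, behind AKR1B10 in WT cells and within its spread in KO and OE cells. At the low end with doxorubicin, ABCG2 (1.16 ± 0.454 TPM) and AKR1C3 (1.08 ± 0.418 TPM) did not differ beyond their spread in WT cells, nor did ABCB1 (0.616 ± 0.128 TPM) and CBR3 (0.428 ± 0.178 TPM).

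Related genes were taken from 4 lists. Of 14 other transporters linked to drug export, 9 were listed and 8 tested, and 4 were higher and 0 lower with doxorubicin averaged over the lines, where 58.0% of all genes were called, 32.2% higher and 25.9% lower. The share called in this list and in the 3 below is near that of all genes or rests on few genes, and is no result about a list. MVP, the major vault protein once named lung resistance-related protein, was higher by 1.51 ± 0.20 log2 units (limma adjusted p = 5.3e-05), at 46.2 to 69.9 TPM against 11.1 to 27.7 TPM. The ABC pumps ABCC10 (0.96 ± 0.18), ABCC5 (0.78 ± 0.18) and ABCC4 (0.50 ± 0.15) were the others, with adjusted p values of 0.000576, 0.00218 and 0.0117. The list median was 0.46, beside 0.09 for all genes.

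Of 15 other carbonyl and aldo-keto reductases, 11 were listed and 9 tested, and 3 were higher and 3 lower, against 32.2% and 25.9% of all genes. AKR1A1, an aldehyde reductase, was higher by 0.66 ± 0.12 log2 units (limma adjusted p = 0.000367) and CBR4, a mitochondrial reductase, by 0.94 ± 0.18 (0.000702). AKR7A2, an aflatoxin aldehyde reductase, fell by 0.62 (SE 0.12, adjusted p = 0.000815) and DCXR, a xylulose reductase, fell by 0.37 (SE 0.12, 0.0168). Among the 11 enzymes that can pass single electrons or hydride to quinones, all were tested, and 6 were higher and 0 lower, against 32.2% and 25.9% of all genes.

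FDXR, ferredoxin reductase of mitochondria and a known p53 target, led them by 1.93 ± 0.27 log2 units (limma adjusted p = 7.1e-05), at 51.2 to 156 TPM with doxorubicin and 18.3 to 32.3 TPM in control medium. NOS3, the endothelial nitric oxide synthase, was higher by 1.34 ± 0.19 (7.9e-05) and GSR, glutathione reductase, by 0.87 ± 0.14 (0.000257). XDH, xanthine dehydrogenase, was higher by 1.02 ± 0.19 (limma adjusted p = 0.000597). It lay at 0.512 to 2.49 TPM with doxorubicin and at 0.0027 to 0.0977 TPM in control medium. XDH thus passed the minimum for the test through its doxorubicin libraries, and a difference was built into it. Of 9 carriers linked to anthracycline uptake, 4 were listed and 3 tested, and 2 were higher and 0 lower, against 32.2% and 25.9% of all genes. They are the nucleoside transporters SLC29A1 (1.50 ± 0.18, adjusted p = 2.2e-05) and SLC29A2 (0.74 ± 0.25, 0.0227), which are known for nucleosides. In KO or OE against WT averaged over the media, 0 genes of the 4 lists passed (limma; 0 on recovered reads). At an unadjusted p under 0.05 in KO there were 3 of the 11 enzymes acting on quinones and 1 of the 9 other carbonyl and aldo-keto reductases. There were 0 of the 8 other transporters and 0 of the 3 uptake carriers, where 8.33% of all genes had that. In OE there were 2 of the 11 enzymes acting on quinones and 0 in the other lists, where 8.96% of all genes had that.

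**Figure D4:**
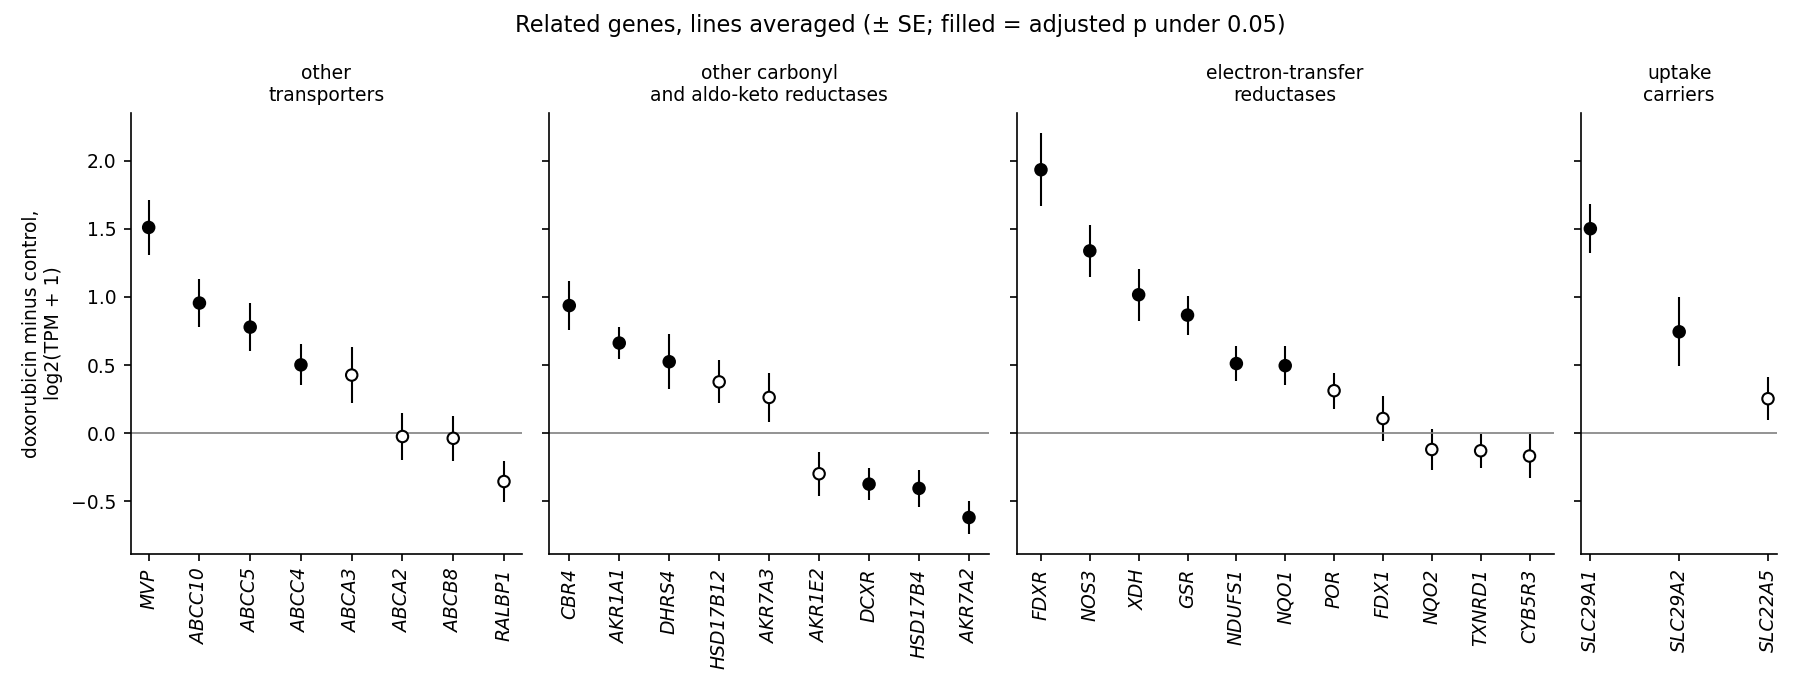
Points are doxorubicin minus control differences in log2(TPM + 1), averaged over the lines, for the tested genes of 4 lists, bars are ± SE, and filled points passed at an adjusted p under 0.05. FDXR, MVP and SLC29A1 stand highest, and AKR7A2 lowest.

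Among 12571 other protein-coding genes, the gene most like each of the 9 was found by Pearson correlation of log2(TPM + 1) over the 12 libraries, each centred on its median gene. The points share libraries and fall into 2 media, so a high value can follow from the media alone. ABCC2 was most like ICAM1 (r = 0.991), ABCC3 most like FJX1 (0.990), ABCC1 most like DPP3 (0.976), ABCG2 most like DNAAF4 (0.948) and ABCB1 most like RECQL (0.994). AKR1B10 was most like CASC10 (0.995), CBR3 most like TIGD3 (0.958), AKR1C3 most like FRRS1 (0.958) and AKR1B1 most like LAMA1 (0.914).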

How the data were processed

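Total RNA of HCT116 cells was extracted with Trizol and made into stranded total RNA libraries, per the labels' protocols. The deposited table holds log2 TPM, abundance per gene length and library total. Tools listed in the submitters' processing notes, with no roles, are featureCounts, HISAT2 2.0.4, SAMtools 1.7, edgeR 3.12.1 and R 3.3.3, and the build listed is hg38. The strand setting, annotation and filter are not given in the sources used here. The TPM of the authors sum to 1000000 in each column. Gene names and coordinates came from GENCODE v29, which held 16564 of the 16676 identifiers. SPARCLE was matched by its NCBI gene number.

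Reads were recovered from the deposited log2 TPM. With GENCODE exon lengths, 15182 genes (91.7%) gave whole reads plus a small prior within 0.05 reads in each library, and 5 did so with shuffled lengths. A further 1477 genes, ABCC2 and ABCG2 among them, gave whole reads with a searched length, 6232 bases for ABCC2, whose exons add up to 7837 bases.

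Tests used log2(TPM + 1) of the genes whose TPM was 1 or more in 2 or more libraries. A limma 3.58.1 model (R 4.3.3, eBayes with a mean trend) with 6 group means and 6 residual degrees of freedom was fitted to all 12 libraries. A run on simulated data had the same dispersion for all genes and changes in WT doxorubicin alone. That setting is simpler than these data, and its outcome is not used here. P-values were adjusted by Benjamini-Hochberg within each of 13 comparisons. Alternatives were a pseudocount of 0.1, no filter, median-ratio scaling, only the groups compared, voom on recovered reads, a replicate block and leaving out each library. Exact binomial intervals at 95% on reads cover counting error only. The 10 genes, the related genes and the markers were chosen with earlier results of these data known. The genes most like each were named by the highest correlation, and related genes by the smallest adjusted p of those called, up to 4 a list.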

Additional observations from a re-analysis of the deposited data

How the results depend on the processing

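Doxorubicin against control averaged over the lines gave 7 calls of the 9 genes, 7 or 8 under the alternatives that keep all libraries, and 6 to 8 without each library. Leaving out each library in turn gave 3 to 6 calls in WT cells (5 with all), 2 to 5 in KO cells (5 with all) and 3 to 5 in OE cells (4 with all). For KO against WT averaged over the media, 1 gene (ABCC2) passed with median-ratio scaling, on recovered reads and with a replicate block, and 0 to 1 without each library. For OE against WT averaged over the media, 1 gene (ABCC2) passed on recovered reads and with a replicate block, and the replicate block also gave 1 call in KO against WT in control medium (ABCC2, adjusted p = 0.0416). With the replicate block ABCC2 had an adjusted p of 0.00464 in KO and 0.0476 in OE against WT averaged over the media, and under doxorubicin the block gave calls for ABCC1 in OE (0.0322), CBR3 in WT (0.0235) and OE (0.0311) and AKR1B1 averaged over the lines (0.0419). The letters a and b share only a letter in the labels: the correlation of a minus b between groups ran from -0.39 to 0.81 over 15 pairs of groups, with a median of 0.10.

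Of 887 alternative values for 50 single-gene differences, 818 kept their direction and side of the threshold, 31 lost a call, 27 gained one and 11 turned direction, none of those with a call. AKR1B1 in WT cells turned to -0.0456 with median-ratio scaling and -0.0578 on recovered reads. The ABCC2 interaction in OE cells turned to 0.00601 and 0.00275 under these settings, and ran from -0.50 to 0.32 without each library, above 0 without WT control replicate b, WT doxorubicin replicate a, OE control replicate a or OE doxorubicin replicate b. The AKR1B10 interaction in KO cells turned to 0.13 on recovered reads and ran from -2.18 to 0.70 without each library, and that in OE cells from -1.75 to 0.31, both above 0 without replicate b of the line's doxorubicin libraries. Over all genes, calls numbered 2855 higher and 2840 lower in KO cells and 2988 higher and 2980 lower in OE cells with median-ratio scaling, and 2952 and 2915 in KO cells and 3077 and 2895 in OE cells on recovered reads, in place of 1510 and 2185 in KO and 1895 and 1615 in OE cells. The cause was not tested. Few reads limit AKR1B10 and CBR3 most. The fit on only the groups compared gives no value for differences averaged over the lines, nor for genes under the minimum in those groups.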
